A study of Mus musculus with 4 samples.

Results

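The genes described here are 10 listed as secreted Wnt antagonists with Shisa2, measured in day 6 mouse retinal organoids. They are Sfrp1, Sfrp2, Sfrp5, Frzb, Dkk1, Dkk3, Wif1, Notum, Cer1 and Shisa2. They were chosen by name, as the rows of the deposited gene table whose symbol is one of these, and all 10 were found among its 55426 rows. Such organoids are clumps of cultured stem cells that go on to form retinal progenitors. All 4 libraries came from 1 line, a Mettl3 knockout that carries a GFP reporter named Rx:GFP and a doxycycline-inducible, HA-tagged METTL3, grown in GMEM with 5% KSR and 0.1 µM AGN. METTL3 is the catalytic subunit of the enzyme that writes N6-methyladenosine (m6A) on RNA, and doxycycline (Dox) is the drug that switches on the inducible copy. The untreated group had 2 libraries without Dox and the Dox group had 2 libraries given 2 µg/ml Dox for 6 days, so both groups share the knockout, the reporter and the inducible construct. The sample titles carry the abbreviation EV in both groups, which the labels do not explain. Nothing in the labels states that the 2 libraries of a group came from separate cultures, so the p-values below measure the spread between these libraries, which may be technical. The protocol mentions 2 rounds of library preparation without saying which library belongs to which.

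Wnt proteins are secreted lipid-modified signals that bind Frizzled receptors together with the co-receptors Lrp5 and Lrp6 and stabilise beta-catenin. The 10 genes act at different steps. The secreted Frizzled-related proteins (Sfrp1, Sfrp2, Sfrp5 and Frzb) and Wif1 bind Wnt proteins outside the cell. Dkk1 blocks the co-receptor, Notum removes the lipid from Wnt, and Cer1 binds Nodal and BMP proteins. Shisa2 is not secreted: it holds Frizzled and FGF receptors in the endoplasmic reticulum of the cell that makes it. In the vertebrate head, Wnt signalling is kept low in the anterior neural plate where the forebrain and eyes form, and Sfrp genes are expressed in the early eye.

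The values are FPKM (fragments scaled to transcript length and library size), which allow levels to be set side by side between genes. Differences are given as log2 fold changes of FPKM + 1, Dox minus untreated, from limma fitted on all 13931 genes that averaged 1 FPKM or more, with Benjamini-Hochberg adjustment over those genes and a threshold of 0.05. This scale understates the change of low genes. In that fit 9.31% of tested genes passed the threshold, 4.44% higher and 4.87% lower with Dox. With any 1 of the 4 libraries left out, between 262 and 320 genes passed higher and between 331 and 377 lower, against 619 and 678 with all of them. For a single gene, 2 libraries against 2 allow no exact two-sided permutation p below 0.333, so each p rests on the variance that limma shares across genes.

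The depth recovered from the steps of the low values was 31800000 to 34300000 fragments per library. The targeted gene, Mettl3, stood at 40.33 and 37.98 FPKM untreated and at 45.2 and 46.37 FPKM with Dox (log2 fold change 0.22, adjusted p = 0.122 in limma), and gene-level values do not separate the inducible copy from the knocked-out locus. The labelled tissue was checked against 6 retinal progenitor markers, of which 5 were higher with Dox and Pax6 was not called. Sox2, 1 of the 5, had an adjusted p of 0.0347 in limma at a log2 fold change of 0.54 and was called in 6 of 14 alternative settings, so that 4 were higher with any 1 library left out. Six6 and Rax averaged below 1 FPKM untreated and passed the filter only through the Dox libraries. Of the defining markers, Six6 was near 0 without Dox, at 0.01 FPKM in both untreated libraries, and stood at 79.22 and 92.44 FPKM with Dox. Rax was also low without Dox, at 1.12 and 0.82 FPKM, and stood at 201.14 and 227.98 FPKM with Dox. The summed level of the 6 markers was 248.4 to 272.9 FPKM untreated and 902.6 to 1047 FPKM with Dox. In these bulk libraries, fewer cells of a type and less RNA per cell cannot be told apart.

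The sequences that belong to the members the results turn on are shown first. METTL3 methylates adenosines in a short sequence context of which GGACT, in DNA letters, is a common form, so this motif was counted in the coding transcript with the longest coding sequence of each gene in GENCODE M21 (GRCm38). The motif was chosen after the expression values had been seen. The transcript of Sfrp2 (2003 nt) held 0 copies, that of Sfrp1 (4372 nt) 2, that of Shisa2 (3119 nt) 3, that of Dkk3 (3359 nt) 4 and that of Frzb (3149 nt) 6. Of the 11653 tested genes with a coding transcript, 8.67% had no copy either, and the median was 1.05 copies per kb. The median was 1.07 copies per kb for genes higher with Dox and 1.08 for genes lower. The copy nearest the end of the coding sequence is printed for 4 of these members to show the letters in question, with GGACT in capitals and 8 bases on each side, written 5′ to 3′ on the transcript strand.
Sfrp1: actggggcGGACTggggaagg
Frzb: acacccacGGACTcccttcta
Dkk3: gcagacgtGGACTtggcaaaa
Shisa2: ccagctccGGACTctgatgct
The Sfrp1 window lies at chr8:23446490-23446510 (plus strand) in exon 3 of 3, and its GGACT starts 10 nt past the last base of the stop codon, in the 3′ UTR. The Frzb window lies at chr2:80413321-80413341 (minus strand) in exon 6 of 6, 29 nt past the stop codon, also in the 3′ UTR. The Dkk3 window lies at chr7:112117850-112117870 (minus strand) in exon 8 of 8, 349 nt past it in the 3′ UTR. The Shisa2 window lies at chr14:59625742-59625762 (plus strand) in exon 1 of 2, in the 5′ UTR, and all 3 copies in Shisa2 lie there. A match of letters is a description of the reference sequence, and methylation was not measured in these files.

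Promoters of 2 members that rose together, Sfrp2 and Shisa2, are printed beside that of Dkk1, which holds the single match found among the members with a promoter entry to either of the TCF/LEF motifs CTTTGAT and CTTTGAA. TCF/LEF factors are the DNA-binding partners of beta-catenin. Each sequence is the 250 bases upstream of the RefSeq transcription start (GRCm38.p6), 5′ to 3′ on the gene's strand, with a match in capitals.
Sfrp2: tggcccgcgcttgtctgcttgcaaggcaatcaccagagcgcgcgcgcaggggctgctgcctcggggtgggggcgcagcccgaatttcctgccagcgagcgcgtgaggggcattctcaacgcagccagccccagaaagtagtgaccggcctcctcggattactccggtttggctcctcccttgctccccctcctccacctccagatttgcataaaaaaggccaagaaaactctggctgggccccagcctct
Shisa2: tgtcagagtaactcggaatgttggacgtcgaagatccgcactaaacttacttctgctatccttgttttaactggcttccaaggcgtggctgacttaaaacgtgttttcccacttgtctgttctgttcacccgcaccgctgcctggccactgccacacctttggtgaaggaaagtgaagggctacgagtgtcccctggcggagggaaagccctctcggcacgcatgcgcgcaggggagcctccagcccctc
Dkk1: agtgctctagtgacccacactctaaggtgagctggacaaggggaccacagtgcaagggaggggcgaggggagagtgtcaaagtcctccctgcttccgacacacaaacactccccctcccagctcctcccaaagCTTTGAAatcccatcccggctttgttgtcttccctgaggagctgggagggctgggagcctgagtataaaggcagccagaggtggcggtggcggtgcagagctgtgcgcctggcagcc
These windows are chr3:83766071-83766320 (plus strand), chr14:59625031-59625280 (plus strand) and chr19:30549497-30549746 (minus strand). The RefSeq and GENCODE starts of Dkk1 differ. In GENCODE M21 the gene reaches 30549665, so the Dkk1 window lies partly inside it, and so does the match. Promoter entries were found for 7 of the 10 members. Sfrp1, Dkk3 and Notum had none, so their promoters were not searched. Searched on both strands, CTTTGAA was present in 4.46% and CTTTGAT in 3.21% of 32851 promoters of this length. The homeobox core TAATTA, present in 4.84% of them, was found among those 7 upstream of Cer1 alone. The Sfrp2 and Shisa2 windows held none of the 3 motifs, which says only that these letters are not in these windows. Sfrp2 had 16 CpG dinucleotides and Shisa2 14, above the median of 6 over all promoters. Wif1 (21), Frzb (16) and Sfrp5 (13) also lay above it, while Dkk1 (6) and Cer1 (5) did not. As many CpG or fewer than in Sfrp2 and Shisa2 were found in 76.5% and 72.7% of all promoters.

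Of the 10 members, 5 passed the filter on low values, each with a mean of at least 1 FPKM in both groups: Sfrp1, Sfrp2, Frzb, Dkk3 and Shisa2. Among these, 3 rose with Dox (Shisa2, Dkk3 and Sfrp2), 0 fell and 2 did not pass the test (Sfrp1 and Frzb). At an unadjusted p below 0.05 Frzb would count as lower. At the adjusted threshold the background is 4.44% of tested genes higher and 4.87% lower. No share over all tested genes is given for an unadjusted p below 0.05, here or for the genes below. The median log2 fold change of the 5 was 1.61, and it was -0.0042 over all tested genes. The other 5 members (Dkk1, Notum, Wif1, Sfrp5 and Cer1) averaged below 1 FPKM. Counting all 10, 4 had both Dox libraries above both untreated libraries (Sfrp2, Sfrp5, Dkk3 and Shisa2), 4 had both below (Frzb, Dkk1, Wif1 and Notum) and 2 overlapped (Sfrp1, and Cer1 at 0 throughout). Groups without overlap were found in 53.4% of tested genes, 26.5% higher and 26.9% lower, and in 42.2% of the 27532 genes with any value above 0.

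**Figure D1:**
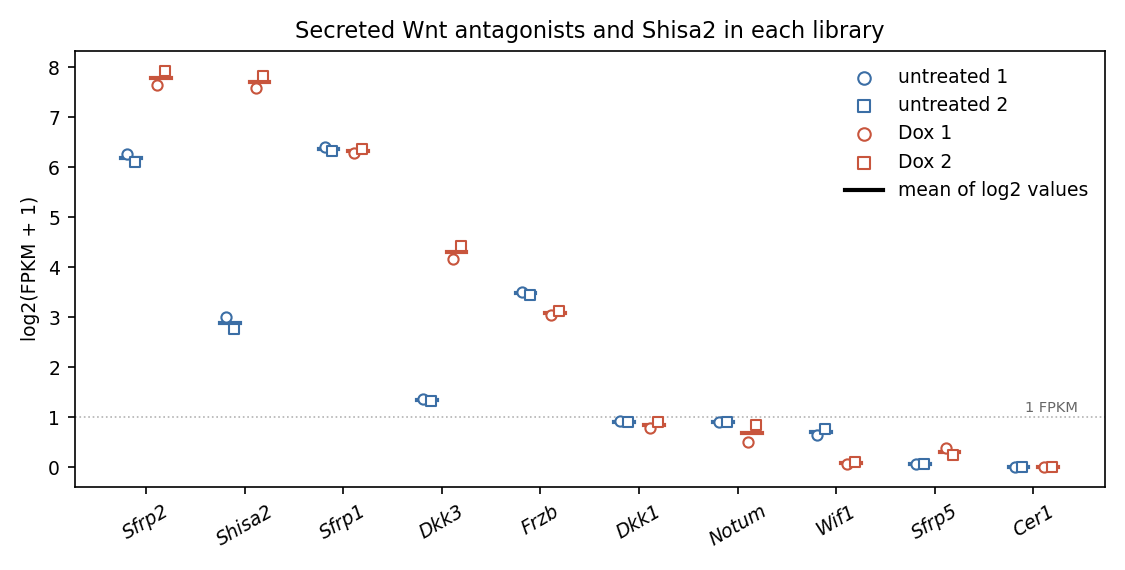
Level of each member in each library as log2(FPKM + 1), ordered by mean FPKM. Circles are replicate 1 and squares replicate 2, blue is untreated and red is Dox, and the short bars are the means of the log2 values. Sfrp2, Shisa2 and Dkk3 stand higher with Dox, Sfrp1 is level, and the 5 genes on the right lie below 1 FPKM in every library.

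Shisa2 (ENSMUSG00000044461, chromosome 14, 59625308 to 59631660, plus strand) changed the most. Untreated replicates 1 and 2 held 7.06 and 5.79 FPKM, and Dox replicates 1 and 2 held 191.62 and 227.17 FPKM. Both Dox libraries lay far above both untreated ones. The mean went from 6.43 ± 0.898 to 209.4 ± 25.1 FPKM (SD, n = 2 each), a ratio of 32.6. The log2 fold change was 4.82 (SE 0.122, adjusted p = 6.96e-05 in limma), and 0.0646% of tested genes, Shisa2 included, had one at least as high. By level, Shisa2 ranked 9347 and 9898 among the 13931 tested genes in the untreated libraries, where 1 is the highest, and 628 and 490 in the Dox libraries. Its rank was thus higher in both Dox libraries than in either untreated one.

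The receptors that Shisa proteins hold back did not move together. Fzd5, a Frizzled gene of the early eye, rose from 1.1 and 0.92 FPKM to 44.55 and 61.52 FPKM (log2 fold change 4.73, adjusted p = 1.16e-04 in limma). Of the 3 tested FGF receptor genes Fgfr2 fell, from 59.11 and 56.56 to 30.63 and 33.55 FPKM (log2 fold change -0.83, adjusted p = 0.00239). Fgfr1 stood between 71.95 and 87.39 FPKM in the 4 libraries with overlapping groups and was not called, and neither was Fgfr3. Of the 10 other Shisa family genes, 5 were tested and 0 passed the threshold in limma (1, Shisa6, at an unadjusted p below 0.05), with a median log2 fold change of -0.10. Shisa4 and Shisa5 stood at 8.43 to 16.09 FPKM across both groups. Shisa6 was at 0.46 and 0.14 FPKM untreated and at 2.97 and 1.01 FPKM with Dox (log2 fold change 1.13, adjusted p = 0.117 in limma). Shisa6 passed with the replicate number as a block (adjusted p = 0.0161) and without Dox replicate 2 (log2 fold change 1.62, adjusted p = 0.0484). With an untreated mean of 0.3 FPKM and a Dox mean of 1.99 FPKM, Shisa6 passed the filter only through the Dox libraries. Its value rests on which libraries enter, and the 2 Dox libraries differed widely.

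Among the Wnt-binding members, Sfrp2 (ENSMUSG00000027996, chromosome 3, 83766321 to 83774316, plus strand) rose. It was listed at 75.79 and 67.8 FPKM untreated and at 198.61 and 244.0 FPKM with Dox. The lowest Dox library was well above the highest untreated one. The means were 71.8 ± 5.65 and 221.3 ± 32.1 FPKM (SD, n = 2 each), a ratio of 3.08. The log2 fold change was 1.61 (SE 0.118, adjusted p = 0.00109 in limma), a size reached by 0.969% of tested genes. Exons of Sfrp2 overlap those of Gm26771 on the opposite strand, and whether counting used strand is not given in the sources used here. Gm26771 stood at 0.19 to 0.35 FPKM in the 4 libraries, far below Sfrp2.

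Sfrp1 (ENSMUSG00000031548, chromosome 8, 23411502 to 23449632, plus strand) is the close relative of Sfrp2 and stood slightly above it without Dox. It was listed at 83.39 and 79.62 FPKM untreated and at 77.54 and 81.64 FPKM with Dox. The groups overlapped. The log2 fold change was -0.03 with a 95% interval of -0.20 to 0.13 (SE 0.067, adjusted p = 0.810 in limma), an interval that does not reach the rise of Sfrp2. Within each library the ratio of Sfrp2 to Sfrp1 was 0.909 and 0.852 untreated and 2.56 and 2.99 with Dox. The ratio thus went from below 1 in both untreated libraries to above 2.5 in both Dox libraries (exact two-sided permutation p = 0.333, the smallest possible with 2 against 2).

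Frzb (ENSMUSG00000027004, chromosome 2, 80411970 to 80447625, minus strand), also known as a secreted Frizzled-related protein, was lower with Dox without passing the threshold. It was listed at 10.41 and 9.88 FPKM untreated and at 7.21 and 7.73 FPKM with Dox. The groups did not overlap and the gap was larger than either replicate difference. The log2 fold change was -0.40 with a 95% interval of -0.63 to -0.17 (SE 0.0916, unadjusted p = 0.00605, adjusted p = 0.0598 in limma). With median centring or quantile normalization the adjusted p in limma was 0.0422 or 0.0448, the 2 of 14 alternative settings in which Frzb was called. With every library rescaled to the same sum (TPM) the adjusted p was 0.209, and with the replicate number as a block it was 0.135.

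Sfrp5 and Wif1 were both low. Sfrp5 (ENSMUSG00000018822, chromosome 19, 42197971 to 42202252, minus strand) was listed at 0.04 and 0.05 FPKM untreated and at 0.3 and 0.18 FPKM with Dox. At the recovered depth these values correspond to about 2.16, 2.86, 15.8 and 9.80 fragments, so the untreated values lie under a floor of 3 fragments. Without the filter on low values its log2 fold change was 0.25 (adjusted p = 0.175 in limma). Wif1 (ENSMUSG00000020218, chromosome 10, 121033960 to 121100650, plus strand), a Wnt-binding protein, was listed at 0.57 and 0.7 FPKM untreated and at 0.05 and 0.07 FPKM with Dox. If all fragments came from its longest transcript, these are about 38.1, 49.6, 3.27 and 4.72 fragments. Wif1 ran opposite to Sfrp2, with no overlap between groups. It was below the filter; with the filter removed its log2 fold change was -0.62 and it passed the threshold (SE 0.0586, adjusted p = 0.0401 in limma), where 2.71% of 27532 genes were called, 1.49% lower.

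The 4 Sfrp-type genes together summed to 169.6 and 157.4 FPKM untreated and to 283.7 and 333.6 FPKM with Dox. Sfrp2 made up 44.7% and 43.1% of that sum untreated and 70.0% and 73.2% with Dox. Sfrp1 went the other way as a share, from 49.2% and 50.6% to 27.3% and 24.5%, with its level near 80 FPKM in all 4 libraries. Frzb made up 6.14% and 6.28% untreated and 2.54% and 2.32% with Dox, and Sfrp5 at most 0.106% in any library.

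Of the Dickkopf genes, Dkk3 (ENSMUSG00000030772, chromosome 7, 112116017 to 112159057, minus strand) rose. Dkk3 is the divergent member of the family and does not share the co-receptor block of Dkk1. It was listed at 1.56 and 1.5 FPKM untreated and at 17.04 and 20.46 FPKM with Dox. The libraries of the groups were far apart. The means were 1.53 ± 0.0424 and 18.8 ± 2.42 FPKM (SD, n = 2 each), a ratio of 12.3. The log2 fold change was 2.96 (SE 0.120, adjusted p = 1.61e-04 in limma), and 0.273% of tested genes had one at least as high. Since Dkk3 is low without Dox, the value depends on the pseudocount: it was 1.86 when 5 was added to the FPKM and 3.53 when 0.1 was added.

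Dkk1 (ENSMUSG00000024868, chromosome 19, 30545863 to 30549665, minus strand), the classical secreted inhibitor of Lrp5 and Lrp6, stayed low in both groups. It was listed at 0.89 and 0.87 FPKM untreated and at 0.73 and 0.86 FPKM with Dox, about 50.8 to 65.6 fragments per library. Both Dox values lay below both untreated values, by a margin of 0.01 FPKM at the nearest point. Without the filter its log2 fold change was -0.07 (SE 0.0827, adjusted p = 0.714 in limma). Its co-receptor genes were not called either: Lrp5 had a log2 fold change of 0.24 and Lrp6 of 0.19, and Kremen1, whose product binds Dkk1, had -0.14.

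Notum (ENSMUSG00000042988, chromosome 11, 120653788 to 120661175, minus strand), the Wnt deacylase and itself a known target of Wnt signalling, was listed at 0.86 and 0.87 FPKM untreated and at 0.42 and 0.79 FPKM with Dox. The 2 Dox libraries differed more from each other than the nearer one did from the untreated pair. Without the filter the log2 fold change was -0.23 (SE 0.142, adjusted p = 0.541 in limma). Its exons overlap the antisense genes Notumos and Myadml2os, which stood at 0 to 0.19 FPKM. Cer1 (ENSMUSG00000038192, chromosome 4, 82881751 to 82885148, minus strand), a gene of the anterior visceral endoderm, was listed at 0 in all 4 libraries. A count of 0 allows up to 3 fragments, or 0.0580 to 0.0629 FPKM depending on the library, for counting error only. The 9 endoderm markers examined beside it (Hhex, Sox17, Foxa2, Gsc, Foxa1, Gata4, Gata6, Afp and Ttr) reached at most 0.39 FPKM, with a summed level of 0.73 and 0.92 FPKM untreated and 1.48 and 1.39 FPKM with Dox.

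**Figure D2:**
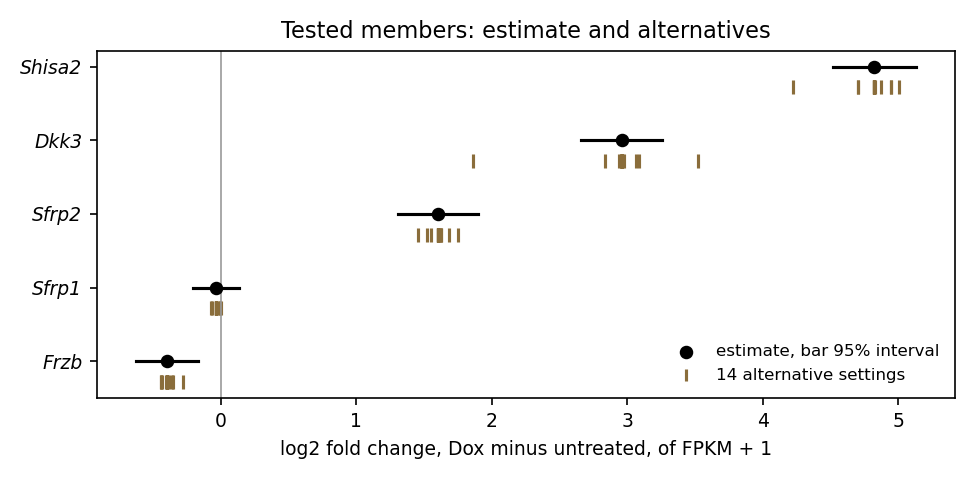
Log2 fold change of FPKM + 1, Dox minus untreated, for the 5 tested members. Dots are the limma estimates with their 95% intervals, and the ticks beneath are the values under 14 alternative settings. Shisa2, Dkk3 and Sfrp2 stay right of 0 in all of them, Sfrp1 sits at 0 and Frzb stays left of 0.

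Ordered by mean level, the untreated libraries ran Sfrp1 (81.5 FPKM), Sfrp2 (71.8), Frzb (10.1), Shisa2 (6.43), Dkk3 (1.53), Dkk1 (0.880), Notum (0.865), Wif1 (0.635), Sfrp5 (0.045) and Cer1 (0). The neighbours Dkk1 and Notum did not differ beyond their spread. With Dox the order was Sfrp2 (221.3 FPKM), Shisa2 (209.4), Sfrp1 (79.6), Dkk3 (18.8), Frzb (7.47), Dkk1 (0.795), Notum (0.605), Sfrp5 (0.240), Wif1 (0.060) and Cer1 (0). Here Sfrp2 and Shisa2 overlapped between libraries, as did Dkk1 and Notum. Frzb lay above both Shisa2 and Dkk3 without Dox and below both with it.

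The 10 members together summed to 180.6 and 167.1 FPKM untreated and to 493.5 and 582.9 FPKM with Dox. Sfrp1 and Sfrp2 made up most of the untreated sum, 46.2% and 47.7% from Sfrp1 and 42.0% and 40.6% from Sfrp2. Sfrp2 held its share with Dox (40.2% and 41.9%), while that of Shisa2 went from 3.91% and 3.47% to 38.8% and 39.0%. The genes of the Wnt proteins themselves went the opposite way: the 19 ligand genes summed to 240.0 and 224.2 FPKM untreated and to 50.0 and 53.3 FPKM with Dox. The 9 members other than Shisa2 thus stood at 0.723 and 0.719 times the ligand sum untreated and at 6.04 and 6.68 times with Dox. These sums are led by a few genes: Wnt7b and Wnt8b made up 80.1% and 80.3% of the ligand sum untreated, and Wnt5b 60.6% and 64.0% of it with Dox. Wnt7b went from 105.18 and 94.81 FPKM to 8.14 and 6.71 FPKM (log2 fold change -3.59, adjusted p = 7.42e-05 in limma).

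**Figure D3:**
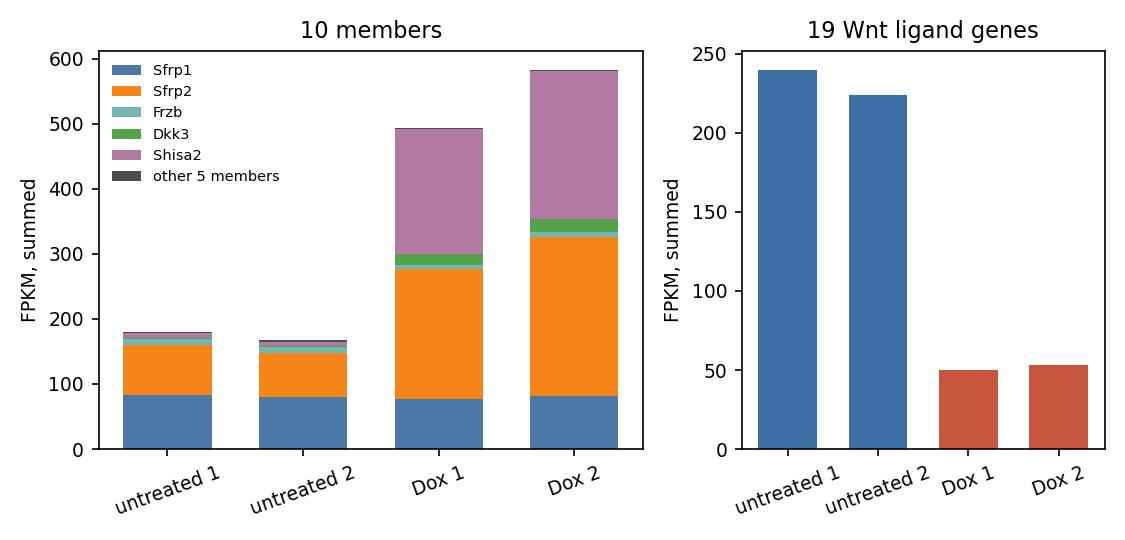
Summed FPKM in each library of the 10 members, stacked by gene (left), and of the 19 Wnt ligand genes (right). The member sum is 167.1 to 180.6 FPKM untreated and 493.5 to 582.9 FPKM with Dox, with Sfrp2 and Shisa2 making up most of the increase, while the ligand sum is 224.2 to 240.0 FPKM untreated and 50.0 to 53.3 FPKM with Dox.

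The remaining genes of the pathway were taken from lists written by name. Of 7 tested Wnt ligand genes, 6 fell and 1 rose, against 4.87% and 4.44% of all tested genes. Among the 6, Wnt1 and Wnt7a averaged 0.98 and 0.61 FPKM with Dox and passed the filter only through the untreated libraries. Wnt8b fell from 87.09 and 85.29 to 4.07 and 5.57 FPKM (log2 fold change -3.92, adjusted p = 1.04e-04 in limma). Wnt5b, which mostly signals without beta-catenin, rose from 16.59 and 14.81 to 30.28 and 34.06 FPKM (log2 fold change 0.99, adjusted p = 0.00300). Wls, the carrier that takes Wnt proteins to the cell surface, fell from 88.48 and 87.93 to 46.31 and 43.28 FPKM (log2 fold change -0.96). Gpc4, a glypican that binds Wnt proteins at the surface, rose with a log2 fold change of 0.68, a call lost without Dox replicate 2. The other 5 of 7 tested secretion and glypican genes were not called.

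Among 13 other Wnt antagonist genes in the table, 7 were tested, of which 1 rose and 3 fell (median log2 fold change -0.29). Of the 3, Sostdc1 passed the filter only through the untreated libraries. Igfbp4, a secreted protein that binds Frizzled and Lrp6, rose from 28.23 and 26.39 to 100.13 and 111.48 FPKM (log2 fold change 1.91, adjusted p = 1.83e-04 in limma). Apcdd1, a membrane inhibitor that Wnt signalling itself induces, fell from 11.38 and 10.18 to 2.97 and 3.03 FPKM (log2 fold change -1.56, adjusted p = 8.31e-04). Sostdc1 had a log2 fold change of -0.86 and Tpbg of -0.44, the latter not called with any 1 library left out. Apcdd1 alone of the 3 lower genes was called without untreated replicate 2, without Dox replicate 1 or without Dox replicate 2. The antagonists therefore did not move as a block, within the members or beyond them.

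Of 16 tested receptor and co-receptor genes, 3 rose and 5 fell (median log2 fold change -0.10). Fzd8 and Fzd1 rose besides Fzd5, with log2 fold changes of 2.04 and 1.07, the latter not called without the filter. Fzd10 fell from 16.33 and 15.22 to 2.47 and 2.64 FPKM (log2 fold change -2.24). Fzd3, among the 5 lower genes with a log2 fold change of -0.54, was not called with any 1 library left out (adjusted p from 0.0623 to 0.102 in limma), which leaves 4. Of the 5 tested R-spondin and Lgr genes, which amplify Wnt signalling, 3 fell and 1 rose. Rspo2 had a log2 fold change of -3.62 and Lgr4, a receptor of R-spondins, of 1.83.

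Of 10 tested genes that Wnt signalling is known to induce or that act in its feedback, 3 fell, 1 rose and 6 were not called (median log2 fold change -0.18). Sp5, a direct target, fell from 6.18 and 6.13 to 0.42 and 0.51 FPKM (log2 fold change -2.29, adjusted p = 3.53e-04 in limma). It passed the filter only through the untreated libraries. Axin2, the feedback inhibitor most used as a readout of the pathway, had a log2 fold change of -2.28 and Lef1 of -1.03, the latter not called without the filter. Myc went against these, rising from 2.86 and 2.77 to 14.45 and 18.35 FPKM (log2 fold change 2.18, adjusted p = 6.34e-04). Markers of other cell types moved beside these genes. Of 5 tested markers of the dorsal forebrain and midline, 4 were lower. The summed level of all 6 genes on that list went from 245.5 and 244.4 to 25.2 and 21.9 FPKM. This list shares Wnt8b, Wnt3a and Rspo2 with the ligand and R-spondin lists. Of 5 tested neural crest markers 3 were lower, with a sum of 31.4 and 30.7 FPKM untreated and 8.31 and 7.12 FPKM with Dox. These 3 (Sox10, Tfap2b and Foxd3), and Lmx1a of the dorsal forebrain list, passed the filter only through the untreated libraries. Of 6 pigment epithelium markers 3 were tested and called higher (Pmel, Mitf and Dct), and of 3 optic stalk markers 2 were (Pax2 and Vax2). Of these, Mitf, Dct, Pax2 and Vax2 passed the filter only through the Dox libraries. The sums of the lists went from 2.33 and 2.48 to 61.2 and 61.9 FPKM and from 0.42 and 0.49 to 30.1 and 40.7 FPKM, respectively. Tyr and Rpe65, also on the pigment epithelium list, were near 0 in both groups. Tyr was at 0 and 0 FPKM untreated and at 0.11 and 0.01 FPKM with Dox. Rpe65 was at 0.02 and 0.08 FPKM untreated and at 0.02 and 0 FPKM with Dox. Tyrp1, below the filter as well, went from 0.09 and 0.09 FPKM untreated to 0.62 and 0.64 FPKM with Dox, and was called without the filter. Of 5 tested neuron markers 5 were lower. Tubb3 lost its call without untreated replicate 1, and Elavl3 without either Dox replicate. All 6 genes on the neuron list summed to 144.7 and 139.9 FPKM untreated and to 79.8 and 83.7 FPKM with Dox. Of 6 pluripotency markers 0 were called by limma, 2 had an unadjusted p below 0.05, and 1 was called with robust estimation. Among the neuron markers, Elavl3, Elavl4 and Neurog2 passed the filter only through the untreated libraries. The part of all these cell types in the members' values was not tested.

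**Figure D4:**
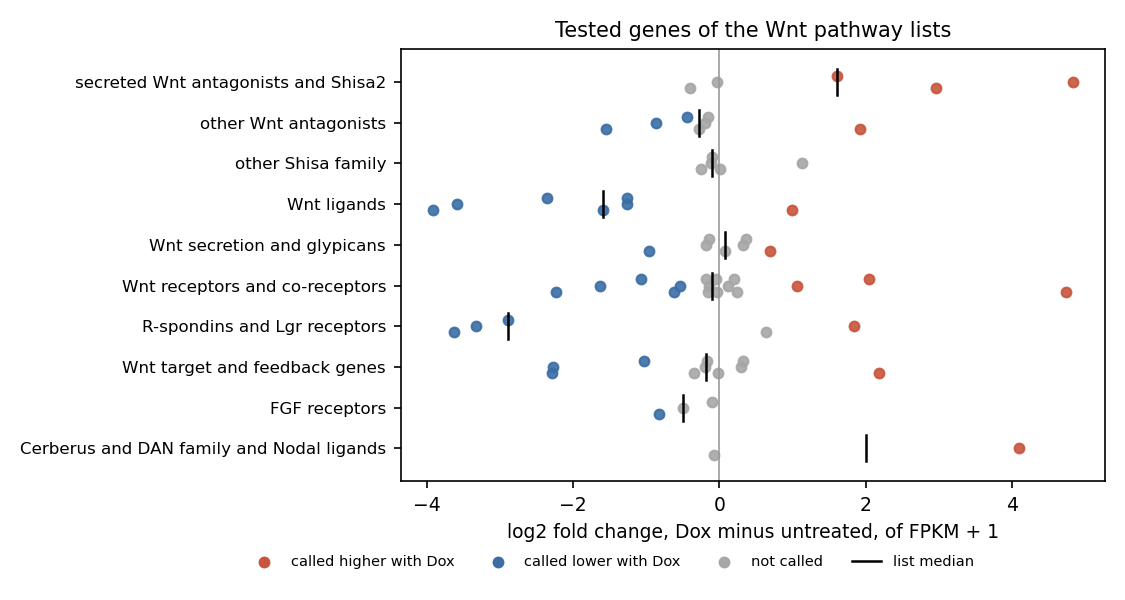
Log2 fold change of FPKM + 1, Dox minus untreated, of each tested gene in the member list and 9 other lists. Red and blue points passed the threshold higher or lower with Dox, grey points did not, and the black line is the list median. Of the Wnt ligands 6 of 7 lie to the left and of the tested members 3 of 5 far to the right, with receptors on both sides.

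For each member that rose, the most similar tested genes were sought, leaving out other members, predicted and clone-named genes, reporter rows and pseudogenes. Similarity was the root mean square difference of log2(FPKM + 1) over the 4 libraries after each gene was centred on its own mean. For Shisa2 the 3 nearest genes were Mab21l1 (0.0468), Fzd5 (0.0976) and Tbx3 (0.113). For Dkk3 they were Cdh11 (0.0529), Cp (0.0854) and Kcnj12 (0.107). For Sfrp2 they were Thrb (0.0412), Greb1l (0.0417) and Zfpm1 (0.0499). Tbx3 and Thrb passed the filter only through the Dox libraries. With 4 libraries in 2 groups this measure mostly reflects the size of the group difference.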

How the data were processed

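Poly(A) RNA of 2 untreated and 2 Dox-treated organoid libraries was sequenced in paired reads of 150 nt. The authors deposited FPKM values, 1 column per library, rounded to 2 decimals. Per the submitters' processing notes STAR, Cuffdiff and the build mm10 were used; versions, annotation and strand setting are not given in the sources used here. Columns were matched to samples by library name. FPKM is not a count, so log2(FPKM + 1) was tested with limma 3.58.1 in R 4.3.3 (trend, no covariate, two-sided). Groups follow the treatment label, and all libraries carry 1 batch date. Depth was fitted to low values (below 0.5 FPKM) of single-transcript genes of 450 to 1200 nt, of which 83.2% to 85.3% came out as whole fragments within 0.0055 FPKM, against 19.3% to 21.3% by chance. On simulated data with 13931 genes, 88 were changed by a log2 fold of 1 and 112 by 2, with noise at each gene's own residual SD. The fit recovered 52.3% of the former and 87.5% of the latter, with 0 in the wrong direction. A smaller share of genes was changed there than the 9.31% called in the data, so these rates need not hold for the data. Coordinates, exon overlaps and transcripts came from GENCODE M21 (GRCm38, the same assembly as mm10), and promoters from RefSeq (GRCm38.p6). From the retinal progenitor list 1 marker is not reported here. Members, lists and motifs were chosen with earlier results of these data known. All members are reported; from each other list the called genes with the highest and lowest fold change are named, and further genes were named after their values were seen. Alternatives were pseudocounts of 0.1 and 5, no filter, a minimum mean of 5 FPKM, TPM, median centring, quantile normalization, no trend, robust estimation, a replicate block and each library left out.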

Additional observations from a re-analysis of the deposited data

How the results depend on the processing

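Shisa2, Sfrp2 and Dkk3 passed the threshold in all 14 alternatives, with log2 fold changes of 4.23 to 5.01, 1.46 to 1.75 and 1.86 to 3.53. Without the filter, with median centring and with quantile normalization 1 member was called lower, against 0: Wif1 in the first, which the filter otherwise keeps out, and Frzb in the other two (log2 fold change -0.40 in both). With 1 library left out Sfrp1 ranged from -0.071 to 0.0027, changing sign without Dox replicate 1 (adjusted p = 0.984 in limma), and it was called in none of the 14. Over all genes the calls were 336 higher and 409 lower without the filter, and 408 and 413 with a minimum mean of 5 FPKM. With 1 library left out, which assumes that the lone library varies like the other group, they ranged from 262 to 320 higher and from 331 to 377 lower, and 3 members were called higher each time. With the replicate number as a block (replicate block) 3 members, 532 genes in all, were called higher and 602 lower. Same-numbered libraries did not deviate together (correlation -0.043 across tested genes), so the number is not shown to pair them. Wnt ligands called lower were 3 of 4 tested with a minimum mean of 5 FPKM, R-spondin and Lgr genes called higher were 2 without the trend or with robust estimation, and FGF receptors called lower were 2 with robust estimation. The recovered depth limits what can be said of Sfrp5, Wif1 with Dox, and Cer1.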

Other observations

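Cer1 belongs to the Cerberus and DAN family of secreted antagonists, and another gene of that family behaved differently. Grem1, a BMP antagonist, was listed at 0.07 and 0.04 FPKM untreated and at 16.1 and 17.75 FPKM with Dox (log2 fold change 4.09, adjusted p = 6.96e-05 in limma). It passed the filter only through the Dox libraries. Of the 8 genes in that list, which includes the Nodal ligands, the other tested gene was Dand5, at 3.2 to 3.87 FPKM in the 4 libraries with overlapping groups. Shisa3, below the filter, was listed at 0.08 and 0.07 FPKM untreated and at 0.48 and 0.56 FPKM with Dox, and passed the threshold when the filter was removed (log2 fold change 0.50, adjusted p = 0.0386 in limma).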
